A study of Mus musculus with 9 samples.

Results

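The mitochondrial respiratory chain is described here through the genes that encode its subunits. They were taken from the gene count table by symbol: the Nduf genes with the letters a, b, c, s or v, the Uqcr genes, the Cox4 to Cox8 genes, the Atp5 genes, the 4 succinate dehydrogenase genes Sdha, Sdhb, Sdhc and Sdhd, the cytochrome c gene Cycs, and the protein-coding genes of mitochondrial DNA, without pseudogenes marked -ps. This gave 99 of the 46078 genes, 86 in the nucleus and 13 on mitochondrial DNA, and 92 of them (82 nuclear and 10 mitochondrial) were counted highly enough to be among the 15937 genes tested. The symbols miss a few subunits that carry other names, such as Ndufab1 of complex I, which did not pass the test (log2 fold change -0.14, adjusted p = 0.69), and take in Atp5s and Atp5sl, which are named after the ATP synthase without being subunits of it.

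RNA-seq was done on cells labelled endothelial cells (ECs), sorted as CD45-Ter119-CD31+ cells from the bone marrow (BM) of untreated, normal wt B6 mice. The sort divided them by Sca-1, a surface protein encoded by Ly6a, into 4 Sca-1+ libraries, here called by the number closing their label (7, 13, 15 and 19), and 5 Sca-1- libraries (8, 10, 14, 16 and 22) (Sca-1high and Sca-1low in the paper). No age or sex is given in the sources used here, and the labels give strain B6 and a wild type genotype for all 9 libraries. The titles divide them further, with CD452 in 13, 14 and 22 and its digits alone in 10, wt in 8, 15, 16 and 19, and neither in 7, and what these tags stand for is not given in the sources used here. The labels do not say for every library that it came from a mouse of its own, so p-values measure the spread between these libraries, and libraries 15 and 16 share a further number in their titles. Labels also open with a running number that does not overlap between the fractions, and a batch that follows it cannot be told apart from the fraction.

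Libraries held 21581653 to 25959818 counts. Ly6a was at 874 to 1306 CPM (counts scaled to library size by the TMM method) in Sca-1+ libraries and 0.240 to 1.49 CPM in Sca-1- libraries. The summed level of 18 endothelial marker genes was 15279.6 to 18542 CPM in Sca-1+ and 1512 to 4436 CPM in Sca-1- libraries, while that of 16 megakaryocyte genes was 43.3 to 90.5 CPM and 26879 to 116313 CPM, with the highest sums in Sca-1- libraries 8 and 10. These 2 libraries also stood apart in their TMM factors, at 0.671 and 0.581 against 0.988 to 1.22 in the other libraries. Sums of leukocyte genes (221 to 280.3 CPM against 2803 to 5182 CPM) and of proliferation genes (61.6 to 129.9 CPM against 308 to 952 CPM) were also lower in Sca-1+ libraries. In every Sca-1- library the megakaryocyte sum was above the endothelial sum. The name ECs is that of the labels and the paper, and the share of Sca-1- cells that were endothelial was not measured. These marker sums move with the fraction in every result below, and their part in those results was not tested. In such bulk libraries, fewer cells of a type and less RNA per cell cannot be told apart.

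The respiratory chain passes electrons from NADH through complex I, or from succinate through complex II, to complex III, cytochrome c and complex IV, where oxygen is reduced, and complex V, the ATP synthase, uses the proton gradient built on the way. Most subunits are encoded in the nucleus and imported, and a small core of complexes I, III, IV and V is encoded by mitochondrial DNA, which is transcribed by its own polymerase. ECs are known for drawing much of their energy from glycolysis.

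As a group, the nuclear genes differed little between the fractions. Of the 82 tested, 15 (18.3%) passed an adjusted p of 0.05 in edgeR's quasi-likelihood test, 6 higher and 9 lower in Sca-1+ ECs, while 44.8% of all genes tested did, 23.3% higher and 21.4% lower. The median log2 fold change (Sca-1+ over Sca-1-) was 0.09, against 0.07 over all genes, and 57 of the 82 (69.5%) lay within 0.5 of 0, against 29.2% of all genes. Standard errors (SE) were smaller than elsewhere, with a median of 0.23 against 0.43, so the low share of calls did not go with wider errors. Among genes of an average log2 CPM of at least 5, 12 of 70 members (17.1%) and 55.5% of all genes were called. Groups did not overlap in 16 members (5 higher, 11 lower), or 19.5%, against 43.6% of all genes. Without Sca-1- libraries 8 and 10, a choice made after seeing the data, 20 nuclear members (24.4%) were called, 5 higher and 15 lower, against 46.0% of all genes in that fit, 3836 higher and 3710 lower. Scaling by library size alone raised the median of all genes to 0.43 and that of the members to 0.43, and turned the calls to 8 higher and 3 lower, where all genes had 4158 higher and 2431 lower.

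**Figure D1:**
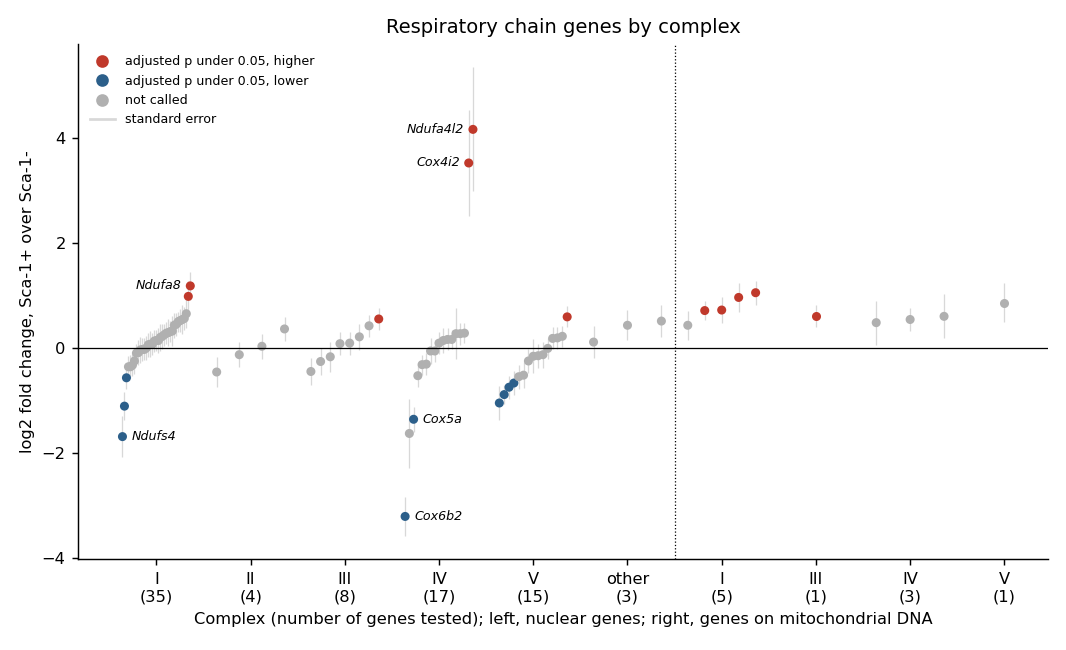
Log2 fold change of each gene tested, Sca-1+ over Sca-1-, by complex, with nuclear genes to the left of the dotted line and genes on mitochondrial DNA to the right; bars are SEs and colours mark genes with an adjusted p under 0.05. Most nuclear genes lie near 0, single genes of complexes I and IV stand far from it, and all 10 mitochondrial genes lie above it.

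Summed over its genes, the nuclear part of every complex overlapped between the fractions. The 35 nuclear complex I genes together gave 3897 ± 592 CPM (SD, n = 4) in Sca-1+ and 3753 ± 626 CPM (SD, n = 5) in Sca-1- libraries. Complex II gave 737 ± 69.2 CPM and 783 ± 197 CPM, complex III 1194 ± 181 CPM and 1216 ± 274 CPM, and complex IV 2159.5 ± 295 CPM and 2309 ± 373 CPM, with the same n. Complex V gave 2940.2 ± 262 CPM in Sca-1+ libraries, with the highest at 3232 CPM, and 3787 ± 569 CPM in Sca-1- libraries, with the lowest at 3109.8 CPM, so the ranges met while the means lay furthest apart of the 5 complexes. All nuclear members together took 1.03% to 1.45% of the counts of a Sca-1+ library and 0.600% to 1.47% of a Sca-1- library, the low end of the latter being libraries 10 and 8 at 0.600% and 0.686%.

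Levels within a complex were far from equal. Per length of exon (RPKM, the CPM above divided by kilobases of exon), the highest nuclear member of both fractions was Cox6a1, the common form of a small complex IV subunit, at 572 ± 68.4 RPKM (SD, n = 4) and 532 ± 91.3 RPKM (SD, n = 5). Cox6b1, another complex IV subunit, was next at 368 ± 62.9 RPKM and 381 ± 70.2 RPKM. Ndufa8 came next in Sca-1+ ECs at 325 ± 59.8 RPKM, and its Sca-1- level of 143 ± 42.8 RPKM put it at place 16 there. These places rest on merged exon length, which for some genes far exceeds that of a single transcript. Cox4i1 has 1550 bases of merged exon and 765 in its longest protein-coding transcript, while Ndufa8 has 861 by both. Places under another length can differ and were not computed. The ranges of Ndufa8 (242 to 382 RPKM) and Cox6b1 (295 to 431 RPKM) overlapped in Sca-1+ libraries, and their order within each library was not tested. Medians over the members of complexes I to V were 49.7 to 93.0 RPKM in Sca-1+ and 51.2 to 83.5 RPKM in Sca-1- ECs.

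Complex I takes electrons from NADH and is built from core subunits that carry them and accessory subunits that surround the core. Of its 35 nuclear genes, 2 rose and 3 fell in Sca-1+ ECs (14.3%, against 44.8% of all genes), with a median log2 fold change of 0.15. The 28 accessory genes had 2 higher and 2 lower, and the 3 core genes of the electron input module had 1 lower, Ndufs1.

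Ndufa8, an accessory subunit held in the space between the mitochondrial membranes, was counted at 284, 329, 299 and 208 CPM in Sca-1+ libraries 7, 13, 15 and 19, and at 80.3, 94.7, 173, 139.7 and 128 CPM in Sca-1- libraries 8, 10, 14, 16 and 22. Every Sca-1+ library lay above every Sca-1- library, and the 2 lowest were Sca-1- libraries 8 and 10. Its log2 fold change was 1.19 (SE 0.26, adjusted p = 0.0042). Ndufa8 (ENSMUSG00000026895) lies on chromosome 2 from 36036326 to 36049406 on the minus strand of GRCm38 and shares exons with no other annotated gene. The last bases before its RefSeq start hold 2 matches to the letters GCGCANGCG, the motif of nuclear respiratory factor 1 (NRF1), a known regulator of respiratory genes, here as the opposite strand reads it, and they are shown because this is the called complex I gene with such matches next to its start. These bases lie inside the GENCODE span given above, after its start, so they are upstream of the RefSeq start only. Capitals mark the matches in the 29 bases chr2:36049339-36049367 (minus strand, GRCm38.p6).
Ndufa8: CGCTTGCGCgtcgctggagaCGCATGCGC

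Ndufc2, an accessory subunit of the membrane arm, had the same pattern of libraries, with 172, 220.4, 219 and 142 CPM in Sca-1+ libraries 7, 13, 15 and 19 and 64.9, 57.3, 135, 113 and 105 CPM in Sca-1- libraries 8, 10, 14, 16 and 22. The groups did not overlap, but Sca-1+ library 19 and Sca-1- library 14 lay close together. The log2 fold change was 0.99 (SE 0.29, adjusted p = 0.017). The call was lost without Sca-1+ library 13 or 15, and the highest adjusted p over the 21 alternatives was 0.053.

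Ndufs4, an accessory subunit needed for a stable electron input module, whose loss causes Leigh syndrome in people, was lower in Sca-1+ ECs. It was at 58.9, 74.7, 66.4 and 38.3 CPM in Sca-1+ libraries 7, 13, 15 and 19 and at 271, 301, 176, 107 and 100.3 CPM in Sca-1- libraries 8, 10, 14, 16 and 22. The groups did not overlap, and Sca-1- libraries 8 and 10, those with the highest megakaryocyte sums and with the lowest Ndufa8 and Ndufc2, held the most Ndufs4. The log2 fold change was -1.68 (SE 0.39, adjusted p = 0.0054). Ndufa3, an accessory subunit of the membrane arm, was at 103 to 185 CPM in Sca-1+ and 231 to 389.8 CPM in Sca-1- libraries (log2 fold change -1.10, SE 0.26, adjusted p = 0.0061). Ndufs1, the largest core subunit and an iron-sulfur protein, was at 83.8 to 103 CPM against 111 to 182 CPM (log2 fold change -0.56, SE 0.21, adjusted p = 0.049) and was called in 3 of the 9 fits that leave out 1 library. Its exons overlap those of Ino80dos on the other strand over 6.05% of their length, and without a stated use of strand reads there cannot be assigned.

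**Figure D2:**
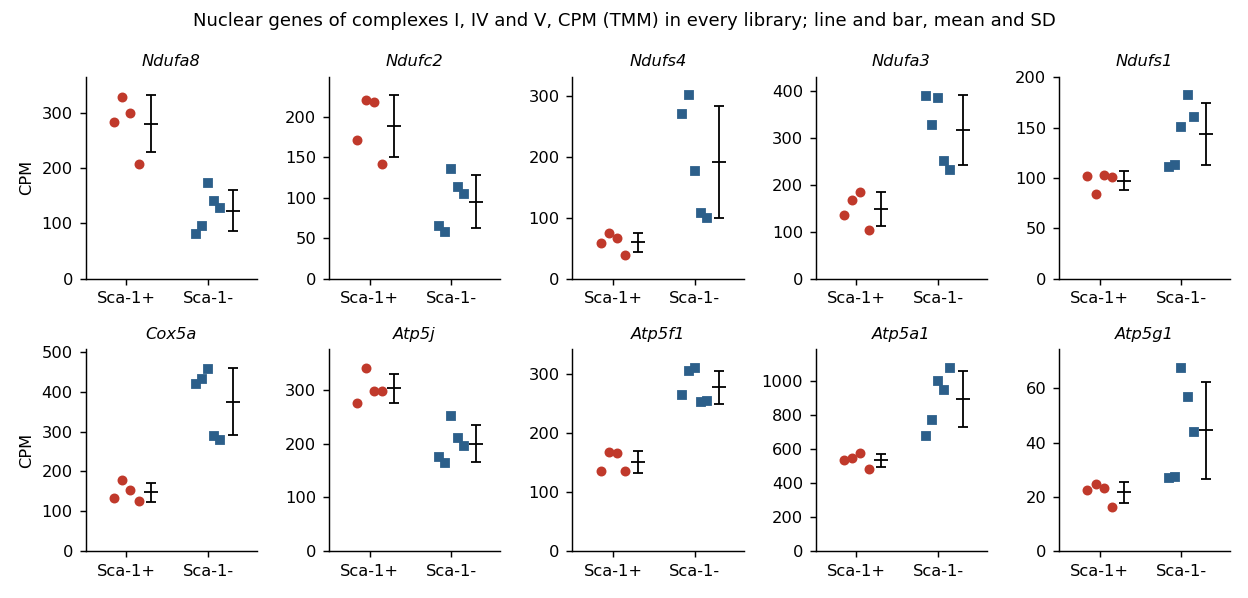
CPM of 10 nuclear genes in every library, Sca-1+ as circles and Sca-1- as squares in the order of their label numbers, with the mean and SD beside them; every y axis starts at 0. In each panel the fractions do not overlap, and in Sca-1- ECs the first 2 squares (libraries 8 and 10) are the lowest for Ndufa8, Ndufc2, Ndufs1, Atp5j, Atp5a1 and Atp5g1 and the highest for Ndufs4.

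Complex II, the only complex with no subunit on mitochondrial DNA, also acts as succinate dehydrogenase in the tricarboxylic acid (TCA) cycle. None of its 4 genes was called by edgeR, and none had an unadjusted p under 0.05. Sdha, the flavoprotein, was at 178 to 269 CPM in Sca-1+ and 150.1 to 299 CPM in Sca-1- libraries, a log2 fold change of 0.04 (SE 0.24). Sdhb, the iron-sulfur subunit, had -0.12 (SE 0.24), and the membrane anchors Sdhc and Sdhd had 0.37 (SE 0.23) and -0.45 (SE 0.28). Sdhd passed the threshold without Sca-1- library 8, and at a log2 fold change of -0.76 (adjusted p = 0.0071) without libraries 8 and 10. DESeq2's Wald test and limma voom also called none of the 4.

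Complex III, which passes electrons from ubiquinol to cytochrome c, had 1 of 8 genes called (12.5%, against 44.8% of all genes). This was Uqcrh, the hinge subunit that helps cytochrome c dock, which was named after its values were seen because it overlapped between the fractions. It was at 128, 141, 148 and 109 CPM in Sca-1+ libraries 7, 13, 15 and 19 and at 77.5, 72.4, 119.5, 97.3 and 79.1 CPM in Sca-1- libraries 8, 10, 14, 16 and 22 (log2 fold change 0.56, SE 0.21, adjusted p = 0.048). It kept the call in 2 of the 9 fits that leave out 1 library. The other 7 genes had log2 fold changes from -0.44 (Uqcrc1, a core protein) to 0.43 (Uqcrb). A second row named Uqcrc1 was at 0 in every library. Cycs, the electron carrier between complexes III and IV, was at 28.5 to 36.2 CPM in Sca-1+ and 13.9 to 32.0 CPM in Sca-1- libraries (log2 fold change 0.44, SE 0.29, adjusted p = 0.24), and 28.5% of its 50-base stretches also occur in other annotated transcripts.

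Complex IV, cytochrome c oxidase, held the widest differences, and they lay mainly in paralogs, the alternative forms of a subunit that are made in certain tissues. Of its 17 nuclear genes tested, 2 were higher and 2 lower (23.5%, against 44.8% of all genes). Of these 4, 3 were among the 5 tissue-restricted forms that could be tested (Cox4i2, Cox6b2, Cox7a1, Cox8b and Ndufa4l2), or 60.0% of those forms. The common forms Cox4i1, Cox6a1, Cox6b1, Cox7a2, Cox8a and Ndufa4 had log2 fold changes from -0.31 to 0.29, and edgeR called none of them, while DESeq2's Wald test called Cox8a (adjusted p = 0.045).

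Cox5a, a common subunit that binds next to Cox4, was the exception among the ordinary subunits. It was at 133, 179, 153 and 125 CPM in Sca-1+ libraries 7, 13, 15 and 19 and at 420, 432, 459, 288 and 279.9 CPM in Sca-1- libraries 8, 10, 14, 16 and 22. The groups lay well apart, and Sca-1- libraries 16 and 22 were the nearest to the Sca-1+ range. The log2 fold change was -1.35 (SE 0.24, adjusted p = 0.0013), and the call held in all 21 alternatives run. Cox5b, another common subunit of complex IV, was at -0.30 (adjusted p = 0.27). The exons of Cox5a (ENSMUSG00000000088, chromosome 9 from 57521274 to 57532426, plus strand) overlap those of the antisense Gm26631 over 12.8% of their length.

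Cox6b2, a form of Cox6b known from testis, was the member with the smallest adjusted p. It was at 3.03, 4.53, 4.01 and 3.87 CPM in Sca-1+ libraries 7, 13, 15 and 19 and at 25, 21.3, 46.2, 58.7 and 26.3 CPM in Sca-1- libraries 8, 10, 14, 16 and 22. No Sca-1+ library came near the Sca-1- range, and the low libraries of the latter were 10, 8 and 22. The log2 fold change was -3.20 (SE 0.37, adjusted p = 1.2e-04), and the call held in all 21 alternatives. Cox6b1, the common form, averaged 260.1 ± 44.5 CPM in Sca-1+ libraries (SD, n = 4) and 269.7 ± 49.7 CPM in Sca-1- libraries (SD, n = 5). Both lie on chromosome 7, Cox6b2 (ENSMUSG00000051811) from 4751792 to 4753094 and Cox6b1 from 30616861 to 30626151, both on the minus strand.

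The 120 bases before the RefSeq starts of Ndufc2 (chr7:97399883-97400002, plus strand), Cox5a (chr9:57521112-57521231, plus strand), Cox6b2 (chr7:4753095-4753214, minus strand) and Uqcrh (chr4:116075071-116075190, minus strand) on GRCm38.p6 are shown for some of the called genes of complexes I, III and IV. At most 1 of these bases lies inside the GENCODE gene, and the GENCODE start of Cox5a comes later, at 57521274. Ndufa3, also called, has such a stretch too and is not shown. Capitals mark a match to CCGGAAG, the core of the ETS motif bound by Gabpa and its relatives, on either strand, and the first 3 hold no match to any motif searched.
Ndufc2: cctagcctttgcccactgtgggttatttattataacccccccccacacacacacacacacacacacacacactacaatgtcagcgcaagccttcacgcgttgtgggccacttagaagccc
Cox5a: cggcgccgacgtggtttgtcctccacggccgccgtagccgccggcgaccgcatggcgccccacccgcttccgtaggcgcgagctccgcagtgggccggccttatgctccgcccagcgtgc
Cox6b2: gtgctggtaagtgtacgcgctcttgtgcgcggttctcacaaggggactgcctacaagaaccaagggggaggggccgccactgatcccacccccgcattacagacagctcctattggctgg
Uqcrh: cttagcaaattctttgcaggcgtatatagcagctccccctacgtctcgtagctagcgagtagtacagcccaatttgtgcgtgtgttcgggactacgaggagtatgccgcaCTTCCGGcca

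In the whole RefSeq promoter windows of 300 bases (250 before the start and 50 after), 4 motifs of factors known to act on respiratory genes were searched on both strands. Of the 67 genes with a window, 21 (31.3%) held GCGCANGCG, against 9.6% of the 17491 protein-coding genes with one. CCGGAAG was in 16 (23.9%) against 12.9%, AAGATGGC, the motif of Yy1, in 9 (13.4%) against 3.6%, and TCAAGGTCA, the motif of the estrogen-related receptors, in 2 (3.0%) against 0.4%. At least 1 of the 4 was in 38 (56.7%) against 23.1%. Among members not called, 32 of 56 held at least 1, among those called higher 3 of 4, and among those called lower 3 of 6. GCGCANGCG was in 20 of the 56 not called, in 1 of the 4 higher (Ndufa8) and in 0 of the 6 lower. A match is a string of letters, and binding was not measured.

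Ndufa4l2 and Cox4i2 were the members with the widest rise. Ndufa4l2, a relative of the complex IV subunit Ndufa4 known to be induced by low oxygen and to be abundant in pericytes, had 811, 376, 1407 and 1765 counts in Sca-1+ libraries 7, 13, 15 and 19 and 104, 3, 2, 130 and 2 counts in Sca-1- libraries 8, 10, 14, 16 and 22. In CPM these were 12.8 to 68.3 against 0.0814 to 6.25. The groups did not overlap, but both were uneven, and the log2 fold change of 4.17 has a SE of 1.18 (adjusted p = 0.016). Cox4i2, the form of subunit 4 known from lung and from smooth muscle and pericytes, had 114, 51, 189 and 237 counts in the Sca-1+ libraries and 21, 2, 0, 22 and 4 counts in the Sca-1- libraries, in the same order, with a log2 fold change of 3.53 (SE 1.01, adjusted p = 0.016). Library 19 was the highest and library 13 the lowest of the Sca-1+ libraries for both genes, and libraries 8 and 16 were the highest of the Sca-1- libraries for both.

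The summed level of 12 mural cell markers (genes of smooth muscle cells and pericytes, which wrap vessels) had the same order in the Sca-1+ libraries. It was 1144, 809, 1586 and 1776 CPM in Sca-1+ libraries 7, 13, 15 and 19 and 65.4, 21.9, 39.4, 103 and 34.6 CPM in Sca-1- libraries 8, 10, 14, 16 and 22. Rgs5, Acta2, Tagln and Myh11 had this order among the Sca-1+ libraries, while Kcnj8, Abcc9 and Mcam were lowest in library 19 there, and Cnn1 had a lower mean in Sca-1+ libraries (log2 fold change -0.62, adjusted p = 0.46). No one of the 12 markers was at or under 3 counts in all libraries of a fraction. Its part in the levels of Ndufa4l2 and Cox4i2 was not tested.

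Ratios of 2 forms within a library do not depend on how libraries are scaled, and 8 pairs were tested with an exact permutation test (two-sided, smallest p 0.0079, Benjamini-Hochberg over the 8). The log2 ratio of Cox6b2 to Cox6b1 was -6.07 ± 0.25 (SD, n = 4) in Sca-1+ and -3.02 ± 0.49 (SD, n = 5) in Sca-1- libraries, a difference of -3.05 (exact p = 0.0079, adjusted 0.032). The ratio of Ndufa4l2 to Ndufa4 was -2.58 ± 1.28 and -8.23 ± 3.03 (difference 5.65, exact p = 0.024, adjusted 0.038), and that of Cox4i2 to Cox4i1 was -6.39 ± 1.19 and -10.39 ± 2.41 (difference 4.0, exact p = 0.024, adjusted 0.038), with an overlap between fractions in the latter. The common forms were thus still the higher ones in every library of both fractions. Cox8b, a form known from heart and muscle, had too few counts to weigh, at no more than 0.83 CPM in any library, although its ratio to Cox8a differed (difference -1.60, exact p = 0.016, adjusted 0.038). Cox7a1, the muscle form, and Cox7a2l, a factor that joins complexes III and IV, held their ratios to Cox7a2 within 0.05 and -0.13 (exact p = 0.93 and 0.27). Cox6a2, Cox7b2 and Cox8c were too low to test, with Cox7b2 at 0 in every library.

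**Figure D3:**
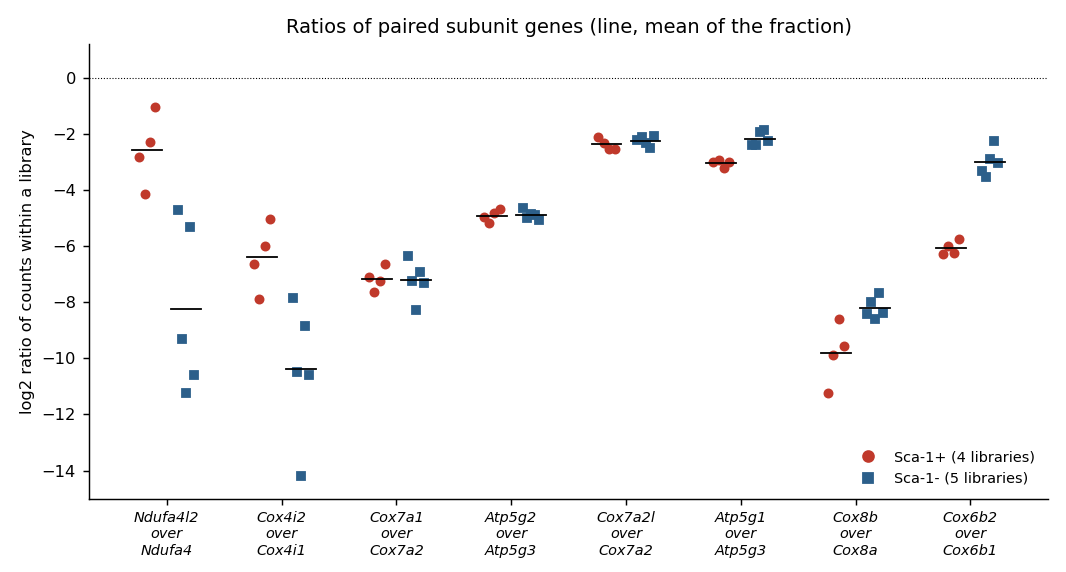
Log2 ratio of the counts of 2 related subunit genes within each library, Sca-1+ as circles and Sca-1- as squares, with black lines at the mean of each fraction and 0.5 counts added to each gene. The fractions are apart for Ndufa4l2 over Ndufa4, Atp5g1 over Atp5g3 and Cox6b2 over Cox6b1, and all ratios lie below 0.

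Complex V, the ATP synthase, had 5 of 15 genes called (33.3%, against 44.8% of all genes), 1 higher and 4 lower, with a median log2 fold change of -0.15. With library size alone, and without Sca-1+ library 7 or 19, 1 of the 15 was called, and 2 were without library 13 and 3 without library 15. Of all genes, 41.3% were called with library size alone, and 37.3%, 38.8%, 38.0% and 36.3% without libraries 7, 19, 13 and 15. The catalytic head and stalks had 1 higher and 3 lower of 9, and the membrane part 1 lower of 6. Atp5a1, which encodes the alpha subunit of the head, was at 535, 547, 574 and 483 CPM in Sca-1+ libraries 7, 13, 15 and 19 and at 676 to 1078 CPM in the Sca-1- libraries, without overlap (log2 fold change -0.74, SE 0.22, adjusted p = 0.022). Atp5b, the catalytic beta subunit, was named after its values were seen, as its fractions did not overlap either, at 775 to 915 CPM and 929 to 1399.9 CPM. It missed the threshold (log2 fold change -0.54, SE 0.23, adjusted p = 0.076) and passed it with DESeq2 size factors, DESeq2's Wald test and limma voom, and without Sca-1- library 8 or 10.

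Atp5f1, the b subunit of the stalk that holds the head in place, was at 136, 168, 167 and 135 CPM in Sca-1+ libraries 7, 13, 15 and 19 and 265, 306, 311, 253 and 255 CPM in Sca-1- libraries 8, 10, 14, 16 and 22. It was even within each fraction and its call held in every fit that leaves out 1 library (log2 fold change -0.88, SE 0.18, adjusted p = 0.0033). Of its 50-base stretches 23.2% also occur in other annotated transcripts, and 8.21% of its exon length overlaps Wdr77 on the other strand. Atp5e, the epsilon subunit of the central stalk and also named after its values were seen, was at 81.6 to 131 CPM against 131 to 211 CPM (log2 fold change -0.66, SE 0.23, adjusted p = 0.038). It was called in 5 of the 9 fits that leave out 1 library, and Atp5a1 likewise in 5.

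Atp5j, coupling factor 6 of the stalk that holds the head in place, went the other way. It was at 275, 341, 297 and 298 CPM in Sca-1+ libraries 7, 13, 15 and 19 and at 174, 164, 252, 211 and 196 CPM in Sca-1- libraries 8, 10, 14, 16 and 22 (log2 fold change 0.60, SE 0.20, adjusted p = 0.029). The fractions were separated by the gap between 252 and 275 CPM, and the call held in 2 of the 9 fits that leave out 1 library. The exons of Atp5j overlap those of Gabpa on the other strand over 12.7% of their length.

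The c subunits, which form the rotating ring in the membrane, come from 3 genes that encode the same mature protein behind different import sequences. Atp5g1 was at 22.4, 24.7, 23.2 and 16.1 CPM in Sca-1+ libraries 7, 13, 15 and 19 and at 27.1, 27.2, 67.6, 57.0 and 43.8 CPM in Sca-1- libraries 8, 10, 14, 16 and 22. All Sca-1- libraries were above the Sca-1+ range, libraries 8 and 10 by little (log2 fold change -1.04, SE 0.32, adjusted p = 0.022). The call was lost without Sca-1+ library 7 or 19 and with library size alone (adjusted p = 0.22). Atp5g3, the most abundant of the 3 per length at 81.7 ± 16.3 RPKM (SD, n = 4) and 89.0 ± 23.4 RPKM (SD, n = 5), and Atp5g2 did not pass the test (log2 fold change -0.12 and -0.15). Within libraries, the log2 ratio of Atp5g1 to Atp5g3 was -3.04 ± 0.12 and -2.18 ± 0.25 (difference -0.86, exact p = 0.0079, adjusted 0.032), and that of Atp5g2 to Atp5g3 was -4.92 ± 0.21 and -4.89 ± 0.16 (difference -0.02, exact p = 0.83). The Atp5g1 to Atp5g3 ratio ran from -3.21 to -2.95 in Sca-1+ and from -2.40 to -1.88 in Sca-1- libraries, without overlap.

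The 10 tested genes on mitochondrial DNA all had a higher mean in Sca-1+ ECs, with a median log2 fold change of 0.67 against 0.07 over all genes and 0.09 over the nuclear members. Of these, 5 (50%) were called, all higher, where 44.8% of all genes were called in either direction and 23.3% were called higher. The 4 called complex I genes mt-Nd1, mt-Nd2, mt-Nd4 and mt-Nd5 did not overlap between the fractions. Nor did mt-Atp6, which edgeR did not call (adjusted p = 0.081) and DESeq2's Wald test did (adjusted p = 0.028). These 5 genes, all higher in Sca-1+ libraries, are 50% of the 10 tested. Of all genes tested, 43.6% did not overlap, in either direction. The median of the 10 genes stayed positive under each alternative, from 0.57 to 1.04, but the count of calls ran from 1 to 6. With the title tag (CD452 or its digits against wt) as a term and library 7, which has no tag, left out, a choice made after seeing the data, 1 of the 10 was called (mt-Nd2), where 32.9% of all genes were, and the median log2 fold change was 0.65. Without library 7 and with no such term, 3 were called, where 37.3% of all genes were.

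mt-Nd1, a core subunit of the membrane arm at M from 2751 to 3707, was at 299, 243, 357 and 195 CPM in Sca-1+ libraries 7, 13, 15 and 19 and at 86.6 to 186 CPM in the Sca-1- libraries, where library 10 was the lowest and 14 the highest. Sca-1+ library 19 and Sca-1- library 14 almost met (log2 fold change 0.97, SE 0.28, adjusted p = 0.017). mt-Nd2 was at 58.9, 60.6, 84.6 and 57.9 CPM in these Sca-1+ libraries and at 26, 22.1, 37.5, 40.8 and 30.3 CPM in Sca-1- libraries 8, 10, 14, 16 and 22, a clear gap (log2 fold change 1.06, SE 0.23, adjusted p = 0.0042), and its call held in all 21 alternatives. mt-Nd5 was at 67.5 to 84.8 CPM and 35.4 to 55.8 CPM (log2 fold change 0.72, SE 0.18, adjusted p = 0.0091), and mt-Nd4 at 99.8 to 143 CPM and 42.9 to 95.1 CPM (log2 fold change 0.73, SE 0.25, adjusted p = 0.033). mt-Nd6, the gene on the light strand, was at 11.5 to 16.7 CPM and 6.56 to 13.7 CPM and was not called (log2 fold change 0.44, SE 0.28, adjusted p = 0.22).

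mt-Cytb, the cytochrome b of complex III, was at 315, 286, 399 and 241 CPM in Sca-1+ libraries 7, 13, 15 and 19 and at 198, 172, 246, 216 and 183 CPM in Sca-1- libraries 8, 10, 14, 16 and 22. Sca-1- library 14 lay above Sca-1+ library 19, and the call (log2 fold change 0.61, SE 0.21, adjusted p = 0.037) held in 1 of the 9 fits that leave out 1 library. mt-Nd4 kept its call in 3 of those 9. mt-Co1, the catalytic subunit of complex IV, was at 189 to 235 CPM and 105 to 202 CPM (log2 fold change 0.55, SE 0.21, adjusted p = 0.060). mt-Co2 (0.61, SE 0.42), mt-Co3 (0.49, SE 0.42) and mt-Atp6 (0.87, SE 0.37) were far lower in level and did not pass the test. mt-Nd3, mt-Nd4l and mt-Atp8 were not tested, at no more than 0.311 CPM in any library.

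**Figure D4:**
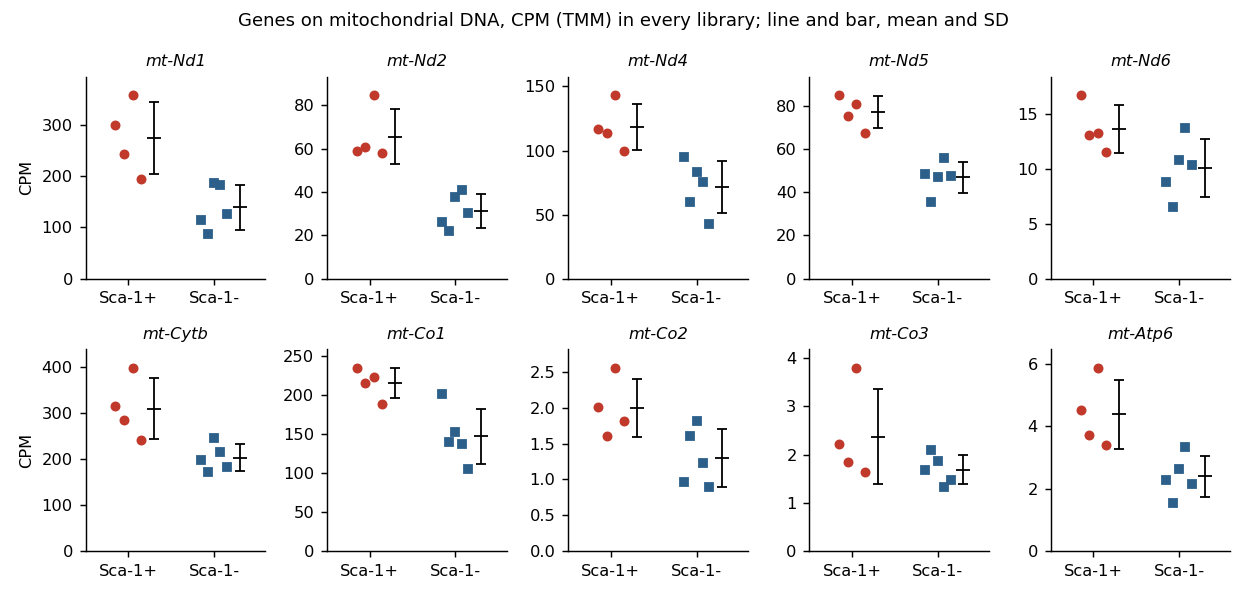
CPM of the 10 tested genes on mitochondrial DNA in every library, Sca-1+ as circles and Sca-1- as squares in the order of their label numbers, with the mean and SD beside them; every y axis starts at 0. All means are higher in Sca-1+ ECs, and Sca-1+ library 15 is the highest or next to highest of its fraction in every panel.

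The balance of counts between the genomes differed as well. Of all counts, 0.0974% to 0.154% fell on mitochondrial members in Sca-1+ libraries and 0.0306% to 0.0843% in Sca-1- libraries, without overlap. There were 9.27 to 11.8 counts on nuclear members for each count on mitochondrial members in Sca-1+ libraries, and 14.7 to 21 in Sca-1- libraries. These shares are given with no test, as they are sums over the members. In the mitochondrial sum, mt-Co2, mt-Co3, mt-Atp6, mt-Nd3, mt-Nd4l and mt-Atp8 added at most 170 counts each in any library. The shares and ratios thus rest almost wholly on the other mitochondrial members. They describe the counts of these libraries and are not proportions of RNA from the 2 genomes in the cells. The 2 ribosomal RNAs of mitochondrial DNA, which are not members, had log2 fold changes of 0.29 (mt-Rnr1, adjusted p = 0.48) and 0.69 (mt-Rnr2, adjusted p = 0.15), and their counts per mitochondrial member count overlapped, at 1.12 to 1.78 and 0.980 to 2.43.

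Levels of the mitochondrial genes differed widely from each other. Per length, mt-Nd1 was at 286 ± 73.2 RPKM (SD, n = 4) and 146 ± 45.7 RPKM (SD, n = 5) and mt-Cytb at 271 ± 58.2 RPKM and 177 ± 25.5 RPKM, which do not differ beyond their spread within a fraction. mt-Co1 (139 ± 12.6 RPKM and 95.4 ± 22.8 RPKM) and mt-Nd4 (86 ± 13.1 RPKM and 51.8 ± 14.8 RPKM) followed. mt-Atp6, mt-Co3 and mt-Co2 were at 6.43 ± 1.62, 3.03 ± 1.25 and 2.92 ± 0.600 RPKM in Sca-1+ ECs and at 3.50 ± 0.960, 2.15 ± 0.388 and 1.91 ± 0.589 RPKM in Sca-1- ECs. These genes are transcribed from mitochondrial DNA together with their neighbours.

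In the GENCODE M21 transcripts, 5 of the 13 mitochondrial genes shared over 95% of their 50-base stretches with another annotated transcript, and these 5 (mt-Co2, mt-Co3, mt-Atp6, mt-Nd3 and mt-Nd4l) were among the 6 lowest genes in both fractions. Their copies are pseudogenes that lie side by side on chromosome 1, from 24612407 to 24615565 on the minus strand. Gm28661, the copy of mt-Co2, has 0 differences over 681 aligned bases, Gm28437 (mt-Co3) 0 over 783, Gm10925 (mt-Atp6) 0 over 678 and Gm10222 (mt-Nd4l) 0 over 294, while Gm28438 differs from mt-Nd3 at 1 of 345 bases, T3C, counted from the first base of mt-Nd3. The sixth low gene, mt-Atp8, lies between mt-Co2 and mt-Atp6, and the stretch between their copies has no annotated transcript to compare. mt-Co1 and mt-Nd4 shared 51.1% and 62.2%, mt-Nd2 and mt-Nd5 8.19% and 7.61%, and mt-Nd1, mt-Nd6 and mt-Cytb none. The copies themselves held few counts, at most 42 for Gm10925 and at most 13 for Gm28661 in a library. How reads that fit more than 1 place were counted is not given in the sources used here, and the part of shared sequence in the low levels was not tested.

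The first 80 bases of mt-Co2 (chrM:7013-7092, plus strand) and of Gm28661 (chr1:24615486-24615565, minus strand), and of mt-Nd3 (chrM:9459-9538, plus strand) and Gm28438 (chr1:24613040-24613119, minus strand), are shown in GRCm38 to make the identity visible. Capitals mark the only base that differs.
mt-Co2: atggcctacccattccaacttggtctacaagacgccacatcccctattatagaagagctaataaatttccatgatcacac
Gm28661: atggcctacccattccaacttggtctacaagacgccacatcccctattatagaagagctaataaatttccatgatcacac
mt-Nd3: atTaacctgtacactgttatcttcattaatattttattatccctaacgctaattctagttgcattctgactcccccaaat
Gm28438: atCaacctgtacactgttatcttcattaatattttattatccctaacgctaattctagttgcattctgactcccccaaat

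**Figure D5:**
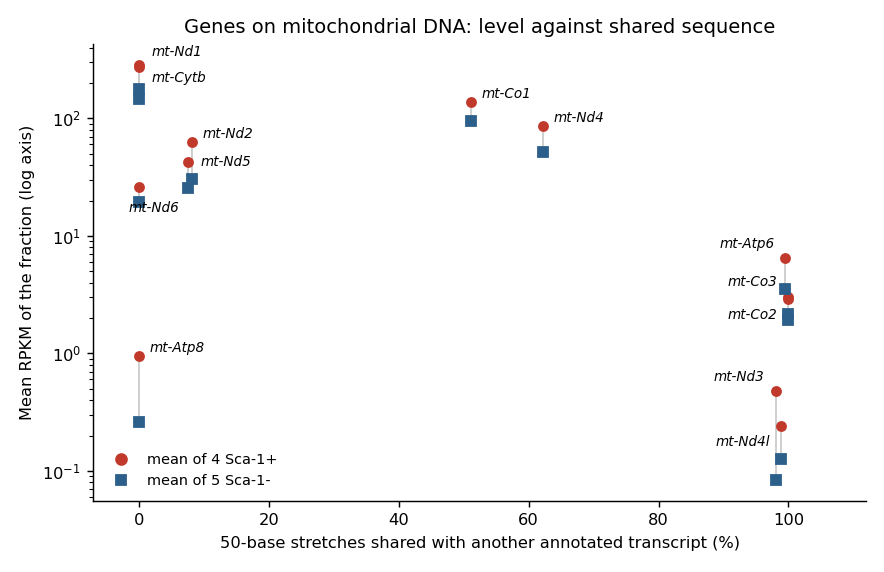
Mean RPKM of each of the 13 mitochondrial genes (log axis), Sca-1+ as circles and Sca-1- as squares joined by a line, against the percentage of its 50-base stretches that also occur in another annotated transcript. The 5 genes over 95% lie below 10 RPKM in both fractions, mt-Atp8 is as low with no annotated copy, and in all 13 the Sca-1+ mean is the higher.

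Among nuclear members, 36 of 85 shared at least 1 such stretch with another transcript and 11 shared over 20%, with the most in Atp5l (68.5%), Atp5h (47.9%) and Uqcrb (43.2%), none of them called. Of the called genes, Atp5f1 was over 20% and Atp5g1 had 11.6%, while Cox6b2, Ndufs4, Ndufa3 and Ndufc2 had none.

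Other genes of the mitochondrion were followed in 7 lists, in which 47 of 214 genes tested were called, 14 higher and 33 lower. With DESeq2 size factors these were 12 and 51, with library size alone 13 and 14, and without Sca-1- libraries 8 and 10 they were 10 and 78, or 40.9% of the lists against 46.0% of all genes in that fit. With all 9 libraries, each of the 7 lists had a smaller share of calls than the 44.8% of all genes. Without libraries 8 and 10 the share was 64.3% for import, carrier, porin, chaperone and cristae genes, 55.6% for antioxidant genes and 50% for the TCA cycle.

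Factors that assemble the complexes had 5 higher and 3 lower of 44, with a median log2 fold change of 0.06. Coa5, needed to build complex IV, was the extreme, at 25.7 ± 3.30 CPM (SD, n = 4) in Sca-1+ and 397 ± 155 CPM (SD, n = 5) in Sca-1- libraries (log2 fold change -3.95, SE 0.37, adjusted p = 4.0e-05). Tmem126b, an assembly factor of complex I, rose (log2 fold change 1.28, SE 0.23, adjusted p = 0.0014).

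Genes that copy and transcribe mitochondrial DNA had 1 higher and 4 lower of 24. Tfam, which packs mitochondrial DNA and starts its transcription, did not pass the test (log2 fold change 0.39, SE 0.29, adjusted p = 0.30). Polg2, the accessory subunit of its polymerase, was higher (1.71, adjusted p = 0.012), and Mgme1, a nuclease of its replication, was lower (-1.54, adjusted p = 0.0052). The mitochondrial ribosome had 5 higher and 8 lower of 76, with Mrps6 at 1.22 (adjusted p = 0.0021), whose exons overlap those of Gm49711 on the same strand over 19.9%, and Mrps23 at -1.01 (adjusted p = 0.0015).

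Regulators had 1 higher and 2 lower of 13. Nrf1, for which the motif above is named, was at -0.62 (adjusted p = 0.052), Gabpa at 0.41 (adjusted p = 0.091), Esrra at -0.21 (adjusted p = 0.61), Ppargc1a at 0.85 (adjusted p = 0.68) and Ppargc1b at -1.25 (adjusted p = 0.25), so none of these passed with all 9 libraries. Nrf1 passed without Sca-1- library 8, 10, 14 or 16, without libraries 8 and 10 together (-0.44, adjusted p = 0.036), and with DESeq2 size factors, upper-quartile scaling or DESeq2's Wald test. Sirt3, the main deacetylase of the mitochondrial matrix, fell from 92.8 ± 40.9 CPM (SD, n = 5) in Sca-1- to 15.3 ± 1.65 CPM (SD, n = 4) in Sca-1+ libraries (log2 fold change -2.60, adjusted p = 2.2e-04), and the AMP kinase subunit gene Prkaa2 from 78.2 ± 65.1 CPM to 1.30 ± 0.902 CPM (log2 fold change -5.90, adjusted p = 4.8e-04).

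The TCA cycle with pyruvate dehydrogenase had 0 higher and 4 lower of 20 (median -0.30), among them Idh3a of isocitrate dehydrogenase (-1.01, adjusted p = 0.034), which overlapped between the fractions and was named after its values were seen, Dlst of the oxoglutarate dehydrogenase complex (-0.90, adjusted p = 0.0042) and the fumarase gene Fh1 (-0.67, adjusted p = 0.034). Fh1 kept its call in 4 of the 9 fits that leave out 1 library, losing it without any one of the Sca-1+ libraries or Sca-1- library 22, and with library size alone its adjusted p was 0.49. Import, carrier, porin, chaperone and cristae genes had 2 higher and 9 lower of 28 (median -0.43), with the chaperone Hspd1 at -1.79 (adjusted p = 0.0014) and the outer membrane channel Vdac1 at -1.63 (adjusted p = 1.0e-04). Mitochondrial antioxidant genes had 0 higher and 3 lower of 9, with Gpx4, which reduces lipid peroxides, at -2.58 (adjusted p = 3.3e-04) and Prdx3 at -1.87 (adjusted p = 2.0e-04).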

How the data were processed

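Per the labels, RNA was taken from sorted cells with a miRNeasy micro kit and made into cDNA with a SMART-Seq v4 low-input kit, which starts from poly(A) tails. It has no molecular identifiers: PCR copies are counted as reads, and limits from depth cover counting error only. The authors deposited 1 table of raw read counts for each gene, in whole numbers; the submitters' processing notes name STAR, featureCounts and mm10, and the use of strand and of reads with several matches is not given in the sources used here. All 9 libraries were used, 4 against 5, at 21581653 to 25959818 counts, where 3 counts are 0.0996 to 0.209 CPM.

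Genes passed filterByExpr (minimum count 10, minimum total 15) and were tested with edgeR 4.0.16 in R 4.3.3 (TMM, quasi-likelihood F-test, two-sided, Benjamini-Hochberg over the 15937 genes tested, threshold 0.05). Standard errors come from the F statistic. RPKM are TMM-scaled CPM per kilobase of merged GENCODE M21 exon. Ratios of paralogs used counts plus 0.5 and an exact permutation test. Shared sequence was counted in 50-base stretches of GENCODE M21 transcripts, and promoters came from RefSeq (GRCm38.p6); 67 of 85 nuclear symbols matched one. The genes named were all mitochondrial members, Sdha to Sdhd, Cycs, the paralog pairs, and for complexes I, III, IV and V up to 3 called genes in each direction whose average log2 CPM reached 3 and whose fractions did not overlap, and from each other list the 2 of largest change under the same conditions with 6 regulators. Members and lists were chosen with earlier results of these data known. Alternatives changed the scaling, filter, test (DESeq2 1.42.0, limma 3.58.1 voom), robustness, pairing, title tag and libraries. The edgeR step was tested on simulated data. Plots were drawn with matplotlib in Python.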

Additional observations from a re-analysis of the deposited data

Results flagged for a closer look

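For each named gene (log2 of CPM plus 0.5) and for the shares of counts, the highest and the lowest library of each fraction was compared with the rest of its fraction, and 9 of 128 such groups held a library set far apart by Dixon's criterion, where chance gives about 1 in 20. In Sca-1+ ECs, library 19 was the lowest for Cox7a2l (4.70, the others 5.12 to 5.16) and for Fh1 (5.45, the others 5.82 to 5.87). Library 15 was the highest for mt-Nd2 (6.41, the others 5.87 to 5.93) and for Mrps23 (5.12, the others 4.69 to 4.72), and library 13 was the lowest for Ndufs1 (6.40, the others 6.66 to 6.70). In Sca-1- ECs, library 14 was the highest for Ndufa4 (7.99, the others 7.28 to 7.42) and for Cox7a2l (5.05, the others 4.80 to 4.85). Library 10 was the highest for Nrf1 (6.73, the others 5.80 to 6.02) and the lowest for Tmem126b (3.18, the others 3.74 to 3.95).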

How the results depend on the processing

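Of the 20 called members, Cox5a, Cox6b2, Ndufs4, Ndufa8 and mt-Nd2 were called under every alternative run, and no called gene changed direction. Of all genes, 44.8% were called in the main fit. The share was 27.3% to 51.7% under other scalings, filters and tests, and 36.3% to 44.6% with 1 library left out, the lowest without Sca-1+ library 15. The count of nuclear members called (15) was 11 to 22 under other scalings, filters and tests, and 9 to 16 with 1 library left out (9 without Sca-1+ library 7 or 13). That of mitochondrial members (5) was 3 with DESeq2 size factors or upper-quartile scaling and 2 to 5 with 1 library left out (2 without Sca-1+ library 15, and 3 without Sca-1+ library 7 or 13 or Sca-1- library 10, 14 or 22). That of the other lists (47) was 27 with library size alone, 79 by DESeq2's Wald test, 88 without Sca-1- libraries 8 and 10 (added after seeing the data), and 30 to 66 with 1 library left out, the lowest without Sca-1+ library 15. With the title tag as a term and library 7 left out (also added after seeing the data), the counts were 9 nuclear and 1 mitochondrial members and 23 genes of the other lists, where 32.9% of all genes were called. The causes were not tested.

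Neighbouring label numbers (7 with 8, 13 with 14, 15 with 16) gave 3 pairs for a fit with a replicate block. The correlations of their deviations were 0.147, 0.148 and 0.0420. They were not compared with those of other library combinations, so they cannot show whether the numbers pair the libraries. The main fit did not pair them, although the titles of 15 and 16 share a further number and those of 13 and 14 a tag. On these 6 libraries the block gave 4340 calls over all genes, 6 nuclear members, 1 mitochondrial member and 16 genes of the other lists, and without the block the counts were 5360, 6, 3 and 26.

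With 1 library left out, most ratio tests did not pass after adjustment. The ratios of Cox6b2, Atp5g1 and Cox8b kept their calls only without Sca-1+ library 15, and those of Ndufa4l2 and Cox4i2 lost theirs in all 9 such fits. Fewer arrangements also raise the smallest p possible, and the part of this was not tested. The differences then ran from -3.18 to -2.86 (Cox6b2), -0.92 to -0.79 (Atp5g1), 4.90 to 6.53 (Ndufa4l2), 3.06 to 4.64 (Cox4i2) and -2.01 to -1.14 (Cox8b). Adding 2 counts changed no call. Shares of counts moved by less than 1 SD. Counts were low for Cox8b, Cox4i2, mt-Co2, mt-Co3 and the untested members, and the part of depth in this was not tested.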
